A study of Danio rerio with 25 samples.

Results

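Heart cells sorted as cardiomyocytes with a history of sox10-driven recombination were set against cells sorted by the blue reporter of the same line, after cryoinjury of the adult zebrafish heart. The samples were chosen by their labels alone, as the 12 libraries of the RFP gate after cryoinjury (CI_RFP) and the 3 libraries of the BFP gate after cryoinjury (CI_BFP), 15 of the 25 libraries in the series. Another 6 libraries of the RFP gate (UN_RFP) and 4 of the BFP gate (UN_BFP) came from uninjured hearts and serve here as a separate look at the same gates. All groups carried the same transgenes, a tamoxifen-inducible Cre under sox10 control and a vmhcl cassette in which loxP sites flank tagBFP ahead of mCherry-NTR. Recombination changes the reporter from blue to red, and in either colour it is driven by vmhcl, a cardiomyocyte gene of the ventricular chamber. Each library holds the RNA of 20 sorted cells, amplified by Smart-seq2, which copies whole transcripts and carries no molecular identifiers. The sources used here do not give age, sex, the interval after injury, the schedule of tamoxifen, or the animal and sort behind each tube, so p-values measure only the spread between these tubes.

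As background, sox10 encodes a transcription factor of the neural crest, the embryonic population that gives rise to pigment cells, glia and, in zebrafish, to some cardiomyocytes. Cryoinjury kills part of the ventricle, after which leukocytes and fibroblasts gather at the wound, surviving cardiomyocytes at its border re-enter the cell cycle, and lost muscle is replaced. Border cardiomyocytes are known for high natriuretic peptide expression and for a partial loss of sarcomere order. Gene symbols are printed as the naming table gives them, often in human capitals, and with the Ensembl ID where several IDs share a symbol. Levels are CPM, the counts of a gene relative to the depth of its library, scaled by the trimmed mean of M values (TMM), and folds are of CI_RFP over CI_BFP unless another pair is named.

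Total counts ran from 5644279 to 11619548 in CI_RFP and from 5691858 to 9107882 in CI_BFP. The number of genes with at least 1 count ran from 3874 to 15380 in CI_RFP, with a median of 11398, and was 14408, 8581 and 9738 in CI_BFP 1, 2 and 3. The 50 most abundant genes took 51.6% ± 12.2 of counts in CI_RFP and 45.3% ± 8.89 in CI_BFP (SD, n = 12 and 3), and mitochondrially encoded genes took 6.0% ± 3.45 in CI_RFP and 4.46% ± 2.64 in CI_BFP. Total counts, genes detected and both shares did not pass an exact two-sided permutation test of the difference of means (adjusted p = 0.892 for each of the 4 measures). CI_RFP 5 and CI_RFP 8 had the fewest genes, 3874 and 5886. Correlations of log2 CPM, across genes, lay between 0.357 and 0.795 for pairs of CI_RFP libraries, between 0.599 and 0.643 for pairs of CI_BFP libraries, and between 0.339 and 0.689 for pairs across the gates. The medians were 0.577 within CI_RFP, 0.603 within CI_BFP and 0.504 across the gates, and the ranges within CI_RFP and across the gates overlapped.

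The gates were first described by SOX10 and by genes of cell types. The gene that drives the reporter, vmhcl, was not analysed. SOX10 had between 1 and 424 counts in every CI_RFP library and 0 in CI_BFP 1, 2 and 3. Its level was 0.0728 CPM at the lowest, 1.93 at the median and 48.4 at the highest in CI_RFP, so that the groups did not overlap, but CI_RFP 10 alone held 424 of the 672 counts. Mean SOX10 was at least 66.0-fold higher in CI_RFP than the level that 3 counts over the combined CI_BFP libraries would give, and the edgeR quasi-likelihood adjusted p was 0.524. MYL7, the myosin light chain that marks every zebrafish cardiomyocyte, was present in all 15 libraries. It ran from 274.9 to 90690 CPM with a median of 11060 in CI_RFP, and was 11350, 5169 and 3191 CPM in CI_BFP. The ranges overlapped fully, with 6 CI_RFP libraries above and 2 below all 3 CI_BFP libraries. Sarcomere genes as a list took 0.355% to 13.1% of counts in CI_RFP, with a median of 7.04%, and 2.09%, 1.12% and 1.28% in CI_BFP, while macrophage genes took 0.00328% to 1.52% in CI_RFP and 0.752%, 2.09% and 2.71% in CI_BFP. In CI_RFP 11 sarcomere genes took 0.355% and fibroblast genes 8.82%. TBX5, a cardiac transcription factor, was at 0 in all CI_BFP libraries, and RYR2 and TBX20, a calcium channel and another such factor, were at 0 in CI_BFP 2 and 3. The gates are therefore called by their reporter and not by a cell type.

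The chamber myosins separated the CI_RFP libraries from each other. vmhc (named MYH7 in the table), the ventricular myosin heavy chain, reached 31000, 41360, 26120 and 53550 CPM in CI_RFP 1, 2, 8 and 12 and lay between 0 and 20.8 CPM in the other 8. It was 243.1, 296.5 and 161.5 CPM in CI_BFP 1, 2 and 3. myh6 (ENSDARG00000090637), the atrial myosin heavy chain of zebrafish, lay between 238.7 and 4334 CPM in those other 8 CI_RFP libraries. It was at 0 in CI_RFP 1, 2 and 8, at 6.55 CPM in CI_RFP 12, and at 0, 0 and 2.21 CPM in CI_BFP. In reads, not corrected for length, 8 of 12 CI_RFP libraries thus had more myh6 than vmhc and 4 had more vmhc, as all 3 CI_BFP libraries had. Neither gene passed the edgeR test between the gates (MYH7 log2 fold 5.76 ± 3.91 SE, adjusted p = 0.828; myh6 log2 fold 10.91 ± 5.16 SE, adjusted p = 0.524), and limma voom gave MYH7 the opposite sign (log2 fold of -2.34). No ID carried the name vmhcl, the ventricular driver of the reporter. Its level, also in the 8 CI_RFP libraries with more myh6, is not analysed here.

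**Figure D1:**
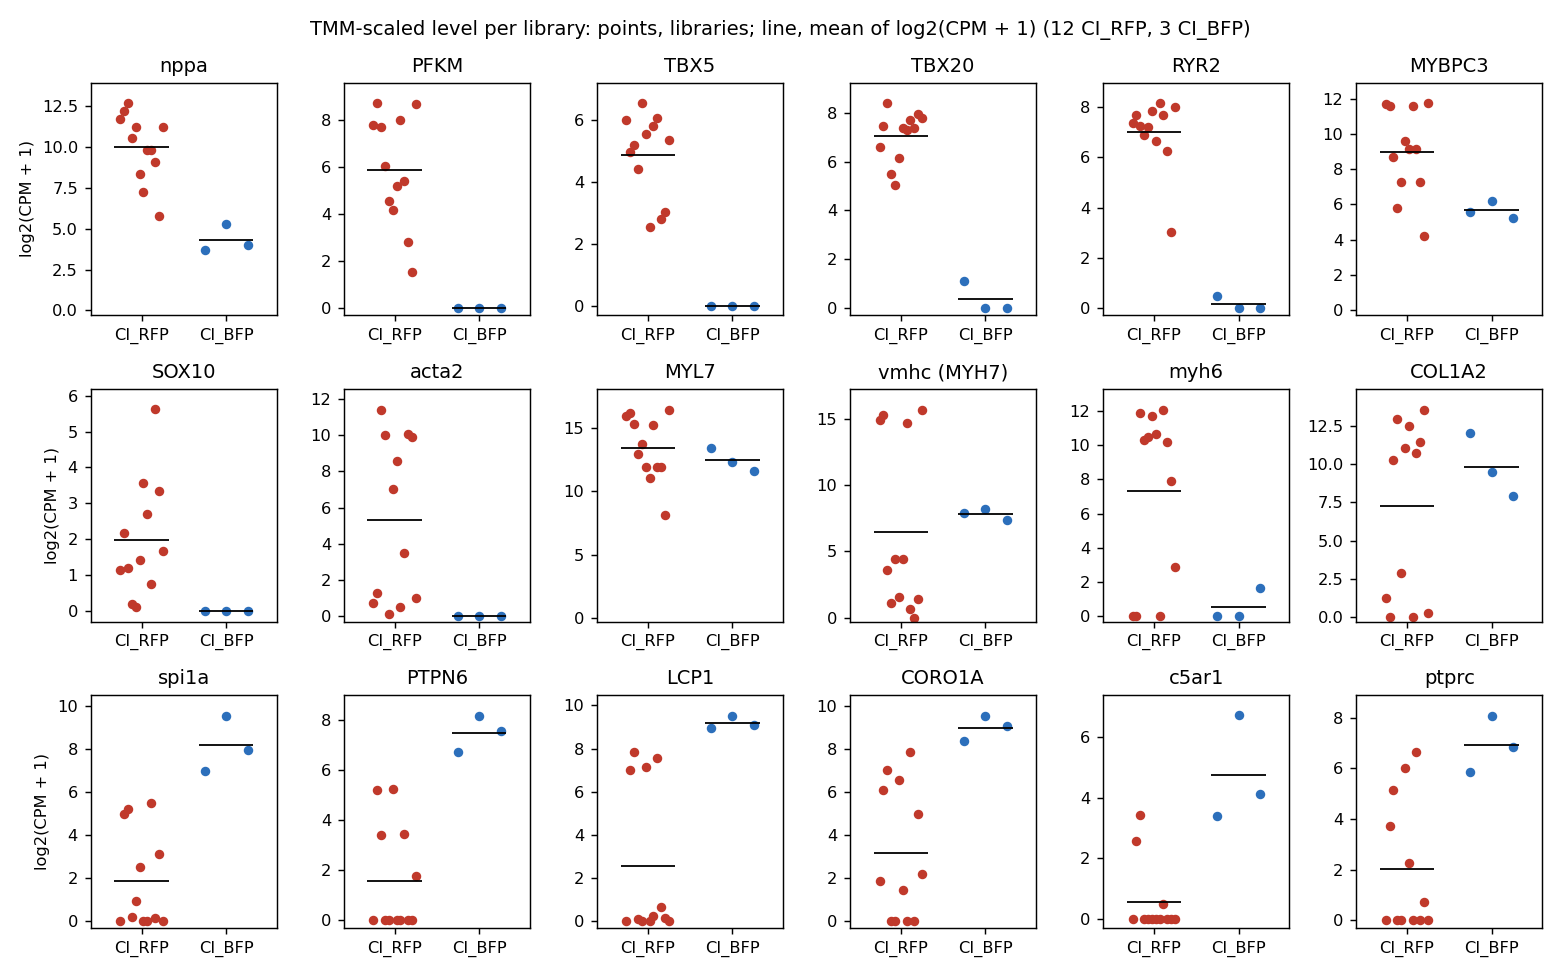
Level of 18 genes in each library as log2(TMM-scaled CPM + 1), with CI_RFP (12 libraries) left of CI_BFP (3 libraries); points are libraries and lines are group means of the log values. nppa, PFKM (ENSDARG00000060797), TBX5, TBX20, RYR2, SOX10 and acta2 lie higher in all 12 CI_RFP libraries than in any CI_BFP library, spi1a, PTPN6, LCP1 and CORO1A lie lower in all 12, and vmhc splits the CI_RFP libraries into 4 at or above 26120 CPM and 8 at or below 20.8 CPM. For SOX10 and acta2 the lowest CI_RFP level is 0.0728 CPM.

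Across all genes, the spread between tubes was wide and no gene passed. Of 31901 genes in the files, 14853 had enough counts to test. At an adjusted p under 0.05, edgeR called 0 genes higher and 0 lower in CI_RFP than in CI_BFP (0.0% of those tested). At an unadjusted p under 0.05 it gave 1136 higher (7.65%) and 249 lower (1.68%). limma voom called 131 higher (0.882%) and 82 lower (0.552%), and DESeq2 430 higher (2.90%) and 7 lower (0.0471%). The smallest edgeR adjusted p was 0.058, for si:dkey-71h2.2, a gene chosen after its values were seen. It had 0 counts in all 12 CI_RFP libraries and 0.381, 4.13 and 77.0 CPM in CI_BFP. The median log2 fold of all genes tested was 0.22, 8211 genes (55.3%) had a positive fold, and 6639 (44.7%) a negative one. With median-ratio size factors in place of TMM that median shifted by -0.605, and 6161 genes had a positive fold. With these factors the median log2 fold was 2.86 for sarcomere genes, 3.77 for calcium handling and excitation genes, -3.72 for pan-leukocyte genes and -3.35 for macrophage genes.

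Because no gene passed, separation was also described by range. Every CI_RFP library lay above every CI_BFP library for 103 genes (0.693% of those tested) and below for 169 genes (1.14%), or 89 and 238 genes in CPM without TMM factors. Without CI_BFP 1, 2 or 3 the counts were 260, 132 and 169 above and 577, 452 and 406 below. At unchanged CPM, leaving out a library cannot lower such a count, so these rises do not test dependence on a tube. Among the 103 genes, 17 (0.114% of those tested) had counts in all 12 CI_RFP libraries and none in CI_BFP. They were PFKM (ENSDARG00000060797), FHL2 (ENSDARG00000003991), asb5b, PPP1R27, CDH13, CHRM2 (ENSDARG00000098612), FZD9 (ENSDARG00000014673), TBX5, SOX10, acta2, CCNB2, PHKG1, PPM1E, TMEM132C, TSPAN7 and 2 IDs known only by clone names. The reverse, counts in all 3 CI_BFP libraries and in no CI_RFP library, held for 3 genes (0.0202%), si:dkey-71h2.2, ADAM11 and an ID without a name, ENSDARG00000089995.

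Of the genes with a usable symbol, the 12 of smallest edgeR p in each direction are given first, whether or not they passed. On the RFP side nppa, the atrial natriuretic peptide, ran from 53.4 to 6455 CPM with a median of 1186 in CI_RFP, against 12.1, 37.4 and 14.8 CPM in CI_BFP. Its groups did not overlap, its log2 fold was 6.51 ± 1.48 SE, and its edgeR adjusted p of 0.0629 stood just past the threshold. PFKM (ENSDARG00000060797), the muscle phosphofructokinase of glycolysis, ran from 1.91 to 418.5 CPM with a median of 53.1 in CI_RFP and had no count in CI_BFP, at least 1317-fold higher on average (adjusted p = 0.0629). asb5b, an ankyrin-repeat gene of the SOCS box family, ran from 8.83 to 398.3 CPM with a median of 121.8 in CI_RFP and was likewise at 0 in CI_BFP (at least 1373-fold higher, adjusted p = 0.0629). Each reached its highest value in CI_RFP 2, and its lowest in CI_RFP 11 for PFKM and in CI_RFP 7 for asb5b.

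FHL2 (ENSDARG00000003991), a LIM-domain gene of heart muscle, ran from 0.382 to 264.7 CPM in CI_RFP with a median of 44.3 and was at 0 in CI_BFP. Its paralog FHL2 (ENSDARG00000042018), named after its values were seen, ran from 103.5 to 1899 CPM with a median of 313.4 in CI_RFP, against 7.25, 0 and 0 CPM in CI_BFP. Both copies were therefore apart from CI_BFP without overlap, with adjusted p-values of 0.0629 and 0.404. PPP1R27, a phosphatase regulator, had medians of 53.5 CPM in CI_RFP and 0 in CI_BFP, and CDH13, the cell-surface T-cadherin, 58.4 and 0 CPM, each at an adjusted p of 0.0756. CHRM2 (ENSDARG00000098612), the muscarinic receptor through which the vagus slows the heart, ran from 0.851 to 98.3 CPM in CI_RFP and was at 0 in CI_BFP. FZD9 (ENSDARG00000014673), a Wnt receptor, ran from 7.15 to 164.8 CPM in CI_RFP and was at 0 in CI_BFP. Adjusted p-values were 0.21 and 0.224, so that these receptors, too, did not pass.

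The 12 genes of smallest p with a negative fold were mostly seen in few CI_RFP libraries and at moderate levels in CI_BFP. ADAM11, a member of the ADAM metalloprotease family, had 0 counts in all 12 CI_RFP libraries and 3.91, 30.8 and 9.68 CPM in CI_BFP, at least 472.8-fold lower (adjusted p = 0.0629). WIPF1, which binds the actin regulator WASP in blood cells, had a median of 0 and a highest value of 2.48 CPM in CI_RFP, against 20.2, 46.2 and 12.9 CPM in CI_BFP (log2 fold -5.96 ± 2.06 SE, adjusted p = 0.524). tnfsf13b, the B-cell activating cytokine BAFF, was seen in 1 of 12 CI_RFP libraries, at 2.09 CPM, and at 15.2, 17.8 and 5.03 CPM in CI_BFP. c5ar1, the receptor for complement C5a on myeloid cells, was at 0 in 9 CI_RFP libraries and reached 9.78 CPM, against 9.53, 103.6 and 16.2 CPM in CI_BFP. The first 3 of these genes did not overlap between the gates, and c5ar1 overlapped in 1 library. The log2 fold of UN_RFP over UN_BFP was 0 for ADAM11, -9.09 for WIPF1 and 1.02 for tnfsf13b.

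A negative fold also held for F2R (ENSDARG00000086236), TESC (ENSDARG00000030839), kntc1, RXRA (ENSDARG00000057737) and SNX20, each without overlap, and for znf1173, SLC6A4 and PSAP with overlap. Among those without overlap, the log2 fold of UN_RFP over UN_BFP was positive for F2R (6.81), TESC (8.59) and kntc1 (2.72). It was negative for RXRA (-0.526) and SNX20 (-1.4). SNX20, a sorting nexin of leukocytes, had a highest value of 5.72 CPM in CI_RFP, against 22.9, 39.0 and 16.2 CPM in CI_BFP. SLC6A4, the serotonin transporter, ran from 0 to 38.0 CPM in CI_RFP with a median of 0.748, against 298.8, 17.4 and 54.8 CPM in CI_BFP. PSAP, the precursor of the lysosomal saposins, was abundant in both gates. It ran from 69.5 to 2065 CPM with a median of 407.7 in CI_RFP, against 1249, 7509 and 3629 CPM in CI_BFP, with 10 of 12 CI_RFP libraries below all CI_BFP libraries (log2 fold -2.79 ± 0.822 SE, adjusted p = 0.269). ACP5, the tartrate-resistant acid phosphatase of osteoclasts and macrophages, and DOCK4 (ENSDARG00000076213), an exchange factor for small GTPases, were chosen after their values were seen. Each had no count in CI_RFP and none in CI_BFP 1, while CI_BFP 2 and 3 had 4.98 and 18.3 CPM of ACP5 and 32.3 and 4.29 CPM of DOCK4 (adjusted p = 0.0629 for both).

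Sarcomere genes, which build the contractile apparatus, had higher mean levels on the RFP side. Of 37 sarcomere genes tested, 36 had a positive and 1 a negative fold, with a median log2 fold of 3.93 beside 0.22 over all genes. None passed the edgeR test, and 5 (13.5%) were above CI_BFP in every CI_RFP library, beside 0.693% of all genes. Those 5 were both TTN genes, FLNC (ENSDARG00000018566), xirp1 (ENSDARG00000030722) and MYOM1 (ENSDARG00000104836). The mean log2 CPM of the list ran from 3.31 to 8.08 with a median of 6.29 in CI_RFP, against 3.79, 2.30 and 2.99 in CI_BFP. In 11 of 12 CI_RFP libraries it exceeded all CI_BFP libraries, and only CI_RFP 11, at 3.31, fell inside their range.

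TTN (ENSDARG00000028213), which encodes the giant spring of the sarcomere, ran from 178.8 to 7770 CPM with a median of 1979 in CI_RFP, against 94.9, 0.954 and 0 CPM in CI_BFP. TTN (ENSDARG00000000563) ran from 76.7 to 4909 CPM with a median of 859.4, against 27.9, 0 and 0 CPM in CI_BFP. Both were thus near or at 0 in CI_BFP 2 and 3, which nevertheless held 5169 and 3191 CPM of MYL7. xirp1 (ENSDARG00000030722), an actin-binding protein of intercalated discs, ran from 104.4 to 3304 CPM in CI_RFP, against 8.58, 0.106 and 0 CPM in CI_BFP. FLNC (ENSDARG00000018566), the muscle filamin, ran from 49.7 to 3125 CPM in CI_RFP, against 1.43, 0 and 19.4 CPM in CI_BFP. MYOM1 (ENSDARG00000104836), an M-band protein, ran from 6.70 to 419.3 CPM in CI_RFP, against 0.667, 0 and 4.04 CPM in CI_BFP. These 5 genes, picked with their values in view, had an edgeR adjusted p of 0.524 each.

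The sarcomere genes of smallest p overlapped between the gates, each with its lowest level in CI_RFP 11. TNNT2 (ENSDARG00000020610), cardiac troponin T, ran from 122.6 to 16280 CPM with a median of 3757 in CI_RFP, against 239.1, 347.3 and 567.5 CPM in CI_BFP (log2 fold 4.04 ± 1.14 SE, adjusted p = 0.212). TNNI1 (ENSDARG00000052708), a troponin I, ran from 87.3 to 9430 CPM with a median of 1867, against 164.8, 199.6 and 249.6 CPM in CI_BFP. In each, 11 of 12 CI_RFP libraries were above all CI_BFP libraries and 1 was below all of them. MYBPC3, the myosin-binding protein C of the heart, ran from 17.1 to 3405 CPM with a median of 561.7 in CI_RFP, against 45.5, 72.5 and 36.9 CPM in CI_BFP (log2 fold 4.65 ± 1.35 SE, adjusted p = 0.243). For MYBPC3, CI_RFP 4 lay among the CI_BFP libraries and CI_RFP 11 below them. CI_BFP libraries thus held troponin and myosin-binding protein transcripts at a lower mean level, not at 0. In tubes of sorted cells, fewer cells of a type and less RNA per cell cannot be told apart. Leukocyte genes had the opposite direction to the muscle genes, since pan-leukocyte genes took 0.000327% to 0.301% of counts in CI_RFP, with a median of 0.0188%, and 0.303%, 0.735% and 0.797% in CI_BFP 1, 2 and 3, and their part in the muscle result was not tested.

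Genes of calcium handling and excitation, which couple the action potential to contraction, were the only one of 27 lists whose mean log2 CPM did not overlap between the gates. By share of counts they did overlap, with 0.0523% in CI_RFP 11 against 0.061% in CI_BFP 2, while the pan-leukocyte list did not (at most 0.301% in CI_RFP and at least 0.303% in CI_BFP), nor did the neutrophil list (at most 0.111% in CI_RFP and at least 0.115% in CI_BFP). The mean log2 CPM of the calcium list ran from 2.44 to 6.27 with a median of 4.84 in CI_RFP, against 1.28, 0.642 and 0.751 in CI_BFP, so that all 12 CI_RFP libraries lay above all CI_BFP libraries. Of 18 genes tested, 17 had a positive and 1 a negative fold, the median log2 fold was 4.70, and 3 (16.7%, beside 0.693% of all genes) did not overlap. RYR2, the channel that releases calcium from the sarcoplasmic reticulum, ran from 7.14 to 286.8 CPM with a median of 159.2 in CI_RFP, against 0.381, 0 and 0 CPM in CI_BFP (log2 fold 10.13 ± 2.66 SE, adjusted p = 0.165). SLC8A1 (ENSDARG00000013422), the sodium-calcium exchanger, ran from 29.6 to 726.2 CPM in CI_RFP, against 0.572, 2.12 and 14.7 CPM in CI_BFP. BVES, a cyclic AMP-binding membrane protein of heart muscle, ran from 30.5 to 821.9 CPM in CI_RFP, against 3.43, 20.6 and 22.2 CPM in CI_BFP. CASQ2, the calcium buffer of the sarcoplasmic reticulum, had a median of 244.1 CPM in CI_RFP, against 16.8, 18.01 and 26.8 CPM in CI_BFP, and exceeded all CI_BFP libraries in 11 of 12 CI_RFP libraries.

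**Figure D2:**
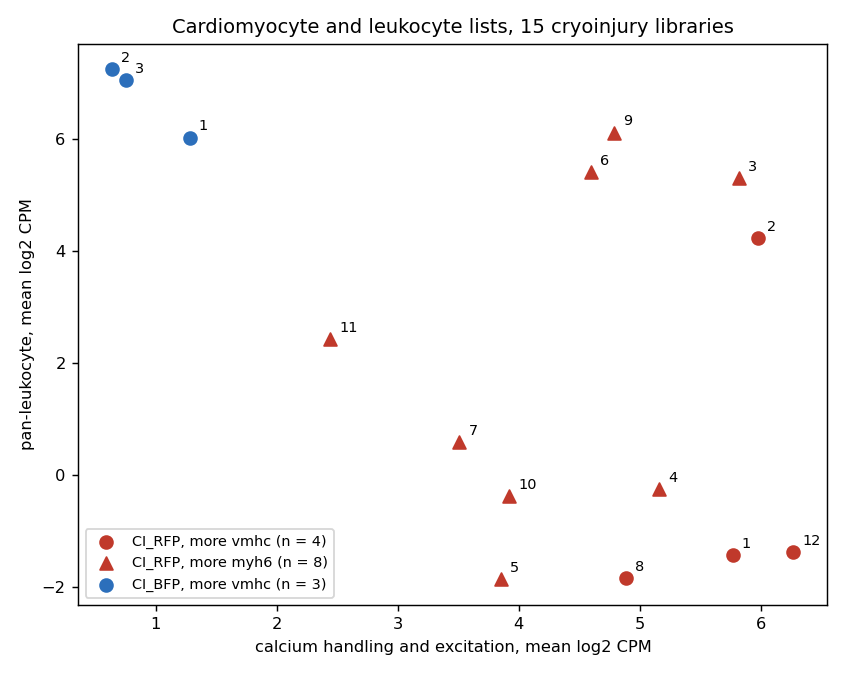
Mean log2 CPM of calcium handling and excitation genes (x) and of pan-leukocyte genes (y) in each of the 15 cryoinjury libraries, CI_RFP in red and CI_BFP in blue, with replicate numbers; circles have more vmhc than myh6, triangles more myh6. CI_RFP libraries lie at 2.44 or more on x and spread from -1.87 to 6.12 on y, while CI_BFP 1, 2 and 3 lie at 1.28 or less on x and at 6.03 or more on y.

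Cardiac transcription factors were more mixed. Of 19 tested, 14 had a positive and 5 a negative fold, the median log2 fold was 1.53, and TBX5 and TBX20 (10.5%, beside 0.693%) did not overlap. With median-ratio size factors the median was 0.694. TBX5, which patterns the heart and forelimb field, ran from 4.89 to 92.7 CPM with a median of 38.0 in CI_RFP and had no count in CI_BFP, at least 363.8-fold higher (adjusted p = 0.224). TBX20, a repressor needed for chamber growth, ran from 32.1 to 336.0 CPM with a median of 165.0 in CI_RFP, against 1.14, 0 and 0 CPM in CI_BFP (log2 fold 8.63 ± 2.2 SE, adjusted p = 0.104). No CI_RFP library lacked either factor, and TBX20 in CI_BFP rested on CI_BFP 1 alone. NKX2-5, an early cardiac homeobox gene, had a median of 36.2 CPM in CI_RFP, against 11.1, 0 and 15.3 CPM in CI_BFP, and HAND2, a bHLH factor of the ventricle, had a median of 129.8 CPM, against 83.9, 14.1 and 64.7 CPM in CI_BFP. Their log2 folds were 3.05 ± 1.87 and 1.53 ± 1.34 SE, with adjusted p-values of 0.679 and 0.988 and overlapping groups. TBX2 (ENSDARG00000018025), a repressor of chamber genes in the atrioventricular canal, was seen in 10 of 12 CI_RFP libraries, up to 40.7 CPM, and at 0 in CI_BFP (adjusted p = 0.524). ZFPM2, a cofactor of GATA factors, and RBM24, a splicing factor of muscle, were picked from the genes without overlap with their values in view. ZFPM2 ran from 14.9 to 57.4 CPM in CI_RFP, against 1.05, 9.75 and 2.94 CPM in CI_BFP, and RBM24 (ENSDARG00000102995) from 16.2 to 398.1 CPM, against 15.1, 3.28 and 14.8 CPM. VEGFA (ENSDARG00000103542), the angiogenic growth factor, was picked in the same way. It ran from 13.6 to 118.5 CPM in CI_RFP, against 2.86, 7.73 and 1.84 CPM in CI_BFP (log2 fold 3.78 ± 2.11 SE, adjusted p = 0.564). The log2 fold of UN_RFP over UN_BFP was -2.75 for VEGFA, -0.391 for ZFPM2 and 2.45 for RBM24.

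Genes of the natriuretic peptide and border zone list had a positive fold in 11 of 14 and a negative fold in 3, with a median log2 fold of 3.17. The 3 without overlap (21.4%, beside 0.693% of all genes) were nppa, nppb and myh7ba. nppb, the B-type natriuretic peptide, ran from 37.5 to 8817 CPM with a median of 2326 in CI_RFP, against 21.0, 3.28 and 0 CPM in CI_BFP (log2 fold 8.49 ± 2.82 SE, adjusted p = 0.524). myh7ba, a slow myosin heavy chain, ran from 15.1 to 368.1 CPM in CI_RFP, against 12.9, 0 and 0 CPM in CI_BFP. Both peptide genes differed widely between CI_RFP tubes, and the lowest CI_RFP library stood close to the highest CI_BFP library. The median of the list was 1.78 with median-ratio size factors and 1.8 in limma voom.

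Genes of energy metabolism mostly had positive folds, and the list means were highest in CI_RFP 1, 2, 3 and 12 for glycolysis, where they reached 7.24 to 7.57. The other 8 CI_RFP libraries had glycolysis means of 4.39 to 6.0, against 5.21, 4.0 and 5.12 in CI_BFP. For the tricarboxylic acid cycle 7 CI_RFP libraries lay above and 3 below all of CI_BFP, and for mitochondrially encoded genes 5 above and 2 below. The lists also split by chamber myosin. With more vmhc (n = 4), with more myh6 (n = 8) and in CI_BFP, median glycolysis means were 7.28, 5.04 and 5.12. In that order they were 8.65, 6.07 and 6.09 for the cycle and 12.4, 9.44 and 9.6 for mitochondrially encoded genes. They were 8.47, 5.85 and 4.99 for nuclear oxidative phosphorylation, and 7.3, 4.47 and 3.0 for fatty acid oxidation. With median-ratio size factors the medians were 0.57 for glycolysis, 0.679 for the tricarboxylic acid cycle, 0.915 for fatty acid oxidation and 1.12 for nuclear oxidative phosphorylation. Of 92 nuclear genes of oxidative phosphorylation, 90 had a positive and 2 a negative fold, with a median log2 fold of 2.22 and none without overlap. COX6A1 (ENSDARG00000054588), a subunit of cytochrome oxidase, ran from 47.9 to 3428 CPM with a median of 636.1 in CI_RFP, against 93.1, 53.8 and 40.8 CPM in CI_BFP (log2 fold 4.09 ± 1.29 SE, adjusted p = 0.404). COX5B (ENSDARG00000068738), another subunit, ran from 4.33 to 1467 CPM with a median of 226.0 in CI_RFP, against 20.2, 13.1 and 8.21 CPM in CI_BFP, and exceeded all of CI_BFP in 11 of 12 CI_RFP libraries. The 13 mitochondrially encoded genes all had a positive fold, with a median of 1.2, which was 0.0169 with median-ratio size factors. Fatty acid oxidation had 24 of 25 members with a positive fold and 1 with a negative fold, a median of 2.11, and 2 (8.0%, beside 0.693% of all genes) without overlap, cpt1ab and ACADM. cpt1ab, which admits fatty acids to mitochondria, ran from 0.218 to 164.5 CPM with a median of 58.2 in CI_RFP, against 0.0953, 0 and 0 CPM in CI_BFP, where it rested on 1 count. ACADVL, the very-long-chain acyl-CoA dehydrogenase, had a median of 426.4 CPM in CI_RFP, against 117.0, 16.7 and 60.5 CPM in CI_BFP, with 10 CI_RFP libraries above all of CI_BFP. ACADM, the medium-chain acyl-CoA dehydrogenase, ran from 94.1 to 1335 CPM in CI_RFP, against 72.7, 38.6 and 51.8 CPM in CI_BFP (adjusted p = 0.524).

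Glycolysis differed among its own members. Of 32 genes, 25 had a positive and 7 a negative fold, with a median of 1.72, and of the tricarboxylic acid cycle 18 of 20 had a positive and 2 a negative fold, with a median of 1.78. In the cycle, MDH2, the mitochondrial malate dehydrogenase, had medians of 1371 CPM in CI_RFP and 595.8 CPM in CI_BFP and overlapped (log2 fold 2.37 ± 1.03 SE, adjusted p = 0.524). The genes for glyceraldehyde phosphate dehydrogenase had opposite signs. GAPDH had a median of 13710 CPM in CI_RFP, against 3002, 2954 and 3229 CPM in CI_BFP (log2 fold 2.78 ± 0.983 SE, adjusted p = 0.524), with 10 CI_RFP libraries above and 2 below CI_BFP. GAPDHS, singled out after its values were seen, ran from 277.7 to 3027 CPM with a median of 1748 in CI_RFP, against 5119, 3643 and 4377 CPM in CI_BFP, with no overlap (log2 fold -1.38 ± 0.778 SE, adjusted p = 0.58). GAPDHS was the only one of the glycolysis genes that lay below CI_BFP in every CI_RFP library (3.12%, beside 1.14% of all genes). PFKM (ENSDARG00000060797) was the only one above (3.12%, beside 0.693% of all genes).

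Ribosomal protein genes had a positive fold in 75 of 75, but small ones, with a median of 0.78 that became -0.0379 with median-ratio size factors, so their direction depended on the scaling. In TMM-scaled CPM 3 (4.0%, beside 0.693% of all genes) were above CI_BFP in every CI_RFP library, RPL27, RPL14 and RPL22. Of 30 immediate early and heat shock genes, 22 had a positive and 8 a negative fold, with a median of 0.975 and 2 without overlap (6.67%, beside 0.693% of all genes), HSPB1 and UNC45B. HSPB1, a small heat shock protein, ran from 2002 to 16580 CPM with a median of 5679 in CI_RFP, against 1588, 1219 and 790.0 CPM in CI_BFP (log2 fold 2.75 ± 0.960 SE, adjusted p = 0.524). UNC45B, the chaperone that folds myosin, ran from 60.5 to 1663 CPM in CI_RFP, against 6.58, 0.106 and 13.4 CPM in CI_BFP. hsp90aa1.1, its partner in muscle, had a median of 4985 CPM in CI_RFP, against 188.3, 152.6 and 92.2 CPM in CI_BFP, and 11 of 12 CI_RFP libraries lay above CI_BFP. BAG3, a chaperone cofactor that maintains the Z-disc, was picked with its values in view, at 628.8 to 8330 CPM in CI_RFP, against 436.4, 320.7 and 97.8 CPM in CI_BFP. HSPB7, the cardiovascular small heat shock protein, had a median of 785.3 CPM in CI_RFP, against 165.0, 30.4 and 117.8 CPM in CI_BFP. HSPB1, UNC45B and BAG3 lay above CI_BFP in every CI_RFP library, while hsp90aa1.1 and HSPB7 overlapped in 1 library each.

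Leukocyte genes had lower mean levels on the RFP side. Of 22 pan-leukocyte genes tested, 21 had a negative and 1 a positive fold, with a median log2 fold of -2.93 beside 0.22 over all genes. Below CI_BFP in every CI_RFP library were 6 (27.3%, beside 1.14% of all genes), spi1a, PTPN6, LCP1, CORO1A, laptm5 and cyba, and 1 (4.55%), RUNX1, was above in every CI_RFP library. None passed the edgeR test, and limma voom called 10 of them lower, beside 0.552% of all genes. The mean log2 CPM of the list ran from -1.87 to 6.12 with a median of 0.164 in CI_RFP, against 6.03, 7.25 and 7.06 in CI_BFP 1, 2 and 3, and 11 of 12 CI_RFP libraries lay below all CI_BFP libraries. The CI_RFP libraries were not uniform, since CI_RFP 2, 3, 6 and 9 reached 4.24, 5.30, 5.41 and 6.12 and the other 8 lay between -1.87 and 2.43.

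spi1a, a PU.1 factor of myeloid cells, ran from 0 to 44.2 CPM with a median of 0.546 in CI_RFP, against 124.9, 749.6 and 252.1 CPM in CI_BFP (log2 fold -5.18 ± 2.07 SE, adjusted p = 0.524). PTPN6, the phosphatase SHP-1 of blood cells, ran from 0 to 37.2 CPM with a median of 0 in CI_RFP, against 105.2, 289.4 and 186.5 CPM in CI_BFP (log2 fold -4.60 ± 2.14 SE, adjusted p = 0.524). LCP1, the actin bundler L-plastin, ran from 0 to 231.8 CPM with a median of 0.165 in CI_RFP, against 490.8, 735.0 and 541.4 CPM in CI_BFP (log2 fold -3.36 ± 2.32 SE, adjusted p = 0.847). In each, the highest CI_RFP library remained below the lowest CI_BFP library. laptm5, a lysosomal protein of blood cells, ran from 0 to 108.6 CPM in CI_RFP, against 109.3, 238.6 and 373.8 CPM in CI_BFP, and cyba, a subunit of the NADPH oxidase, from 0 to 169.5 CPM, against 243.4, 291.8 and 313.0 CPM. ptprc, which encodes CD45 of all leukocytes, overlapped, with 0 to 100.2 CPM and a median of 0.319 in CI_RFP, against 57.3, 269.6 and 113.6 CPM in CI_BFP, and was seen in 6 of 12 CI_RFP libraries. SPI1, the zebrafish spi1b, had a median of 9.35 CPM and a highest value of 416.1 CPM in CI_RFP, against 139.6, 362.8 and 356.0 CPM in CI_BFP, so that 1 CI_RFP library exceeded all of CI_BFP. RUNX1, a factor of blood stem cells that is also known from zebrafish cardiomyocytes at the injury border, ran from 1.36 to 25.6 CPM in CI_RFP, against 1.14, 0 and 0.368 CPM in CI_BFP (adjusted p = 0.973).

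Macrophage genes had the direction of the pan-leukocyte genes. Of 27 tested, 25 had a negative and 2 a positive fold, the median log2 fold was -2.57, csf1ra alone (3.70%, beside 1.14% of all genes) did not overlap, and limma voom called 11 lower, beside 0.552% of all genes. The mean log2 CPM of the list was -1.80 to 7.27 with a median of 0.467 in CI_RFP, against 5.65, 7.21 and 7.38 in CI_BFP, with 10 of 12 CI_RFP libraries below all CI_BFP libraries. csf1ra, the receptor for macrophage colony-stimulating factor, ran from 0 to 28.2 CPM in CI_RFP with a median of 1.31, against 33.3, 125.9 and 87.9 CPM in CI_BFP (log2 fold -3.33 ± 1.58 SE, adjusted p = 0.524). marco, a scavenger receptor, had a median of 0.169 CPM in CI_RFP, against 104.3, 298.6 and 1495 CPM in CI_BFP. MPEG1 (ENSDARG00000055290), the perforin-like macrophage gene, had a median of 0.114 CPM and a highest value of 151.1 CPM in CI_RFP, against 91.6, 485.1 and 266.9 CPM in CI_BFP. Its copy MPEG1 (ENSDARG00000043093) had a median of 0.17 CPM in CI_RFP, against 0, 15.3 and 48.3 CPM in CI_BFP, and the copy MPEG1 (ENSDARG00000078569) had too few counts to test. Lysosome genes had a negative fold in 27 of 31 and a positive fold in 4 (median -1.35), and antigen presentation and interferon genes in 13 of 19, with 6 positive (median -0.544). CTSC and NPC2 (ENSDARG00000096979), a lysosomal protease and a cholesterol carrier, had medians of 26.9 and 1.19 CPM in CI_RFP, and lay between 12.5 and 304.5 and between 21.0 and 156.9 CPM in CI_BFP. The antigen-presenting chaperone genes cd74a and cd74b had medians of 24.7 and 16.9 CPM in CI_RFP, against 556.7, 7417 and 4053 CPM and 323.0, 2924 and 1624 CPM in CI_BFP, with overlap.

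Some further genes below CI_BFP in every CI_RFP library were picked with their values in view and are given as values only. Several encode actin regulators, which were not counted as a list. Others that act on actin, such as DAAM1 (ENSDARG00000015059) and MICAL2, lay above CI_BFP in every CI_RFP library. pfn1, a profilin, ran from 2.43 to 675.3 CPM with a median of 94.8 in CI_RFP, against 985.8, 1930 and 1923 CPM in CI_BFP. CORO1A, a coronin of blood cells, ran from 0 to 236.3 CPM with a median of 3.15, against 329.6, 755.3 and 534.0 CPM in CI_BFP. Subunits of the Arp2/3 complex, which nucleates branched actin, stood beside them. ARPC1B ran from 0 to 394.0 CPM in CI_RFP, against 404.6, 1124 and 857.2 CPM in CI_BFP, and ARPC3 from 0 to 140.9 CPM, against 165.9, 192.0 and 254.5 CPM. COTL1, a coactosin, ran from 0 to 270.3 CPM in CI_RFP, against 309.8, 350.2 and 501.8 CPM in CI_BFP. actr3, the Arp3 subunit, ran from 0 to 64.3 CPM with a median of 31.9 in CI_RFP, against 111.4, 259.1 and 216.5 CPM in CI_BFP (log2 fold -2.72 ± 1.26 SE, adjusted p = 0.524). Also picked were inflammatory genes, among them csf3b, a granulocyte colony-stimulating factor, with a median of 0 and a highest value of 146.7 CPM in CI_RFP, against 161.3, 1344 and 451.7 CPM in CI_BFP. LTA4H, which makes a leukotriene, reached 123.6 CPM in CI_RFP, against 149.3, 214.0 and 136.3 CPM in CI_BFP. GPR84, a receptor for medium-chain fatty acids on myeloid cells, reached 227.5 CPM in CI_RFP, against 250.3, 585.3 and 522.2 CPM in CI_BFP.

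**Figure D3:**
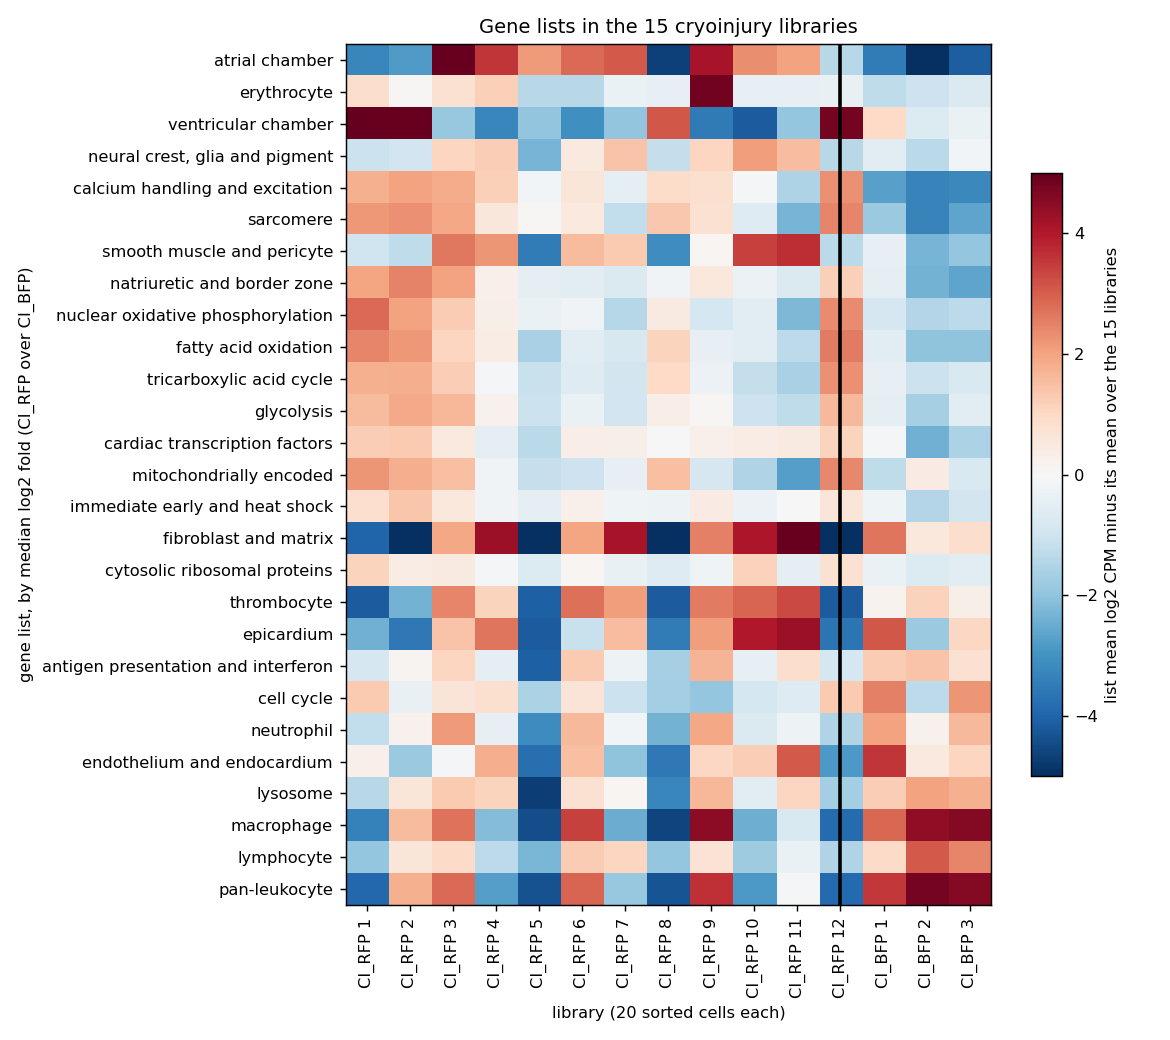
Mean log2 CPM of each of 27 gene lists in the 15 cryoinjury libraries, coloured as the difference from the list's mean over these libraries (scale capped at 5 log2 units). CI_RFP 1 to 12 stand left of CI_BFP 1 to 3, and the black line crosses the column of CI_RFP 12, the last of its gate. Pan-leukocyte and macrophage lists are high in CI_RFP 2, 3, 6 and 9 and in CI_BFP, sarcomere and calcium lists are low in CI_BFP, and fibroblast and matrix genes are low in CI_RFP 1, 2, 5, 8 and 12.

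Of 9 neutrophil genes, 7 had a negative and 2 a positive fold (median -0.995), and of 7 lymphocyte genes, 5 had a negative and 2 a positive fold (median -2.69). il1b, an inflammatory cytokine of the neutrophil list, ran from 0 to 289.5 CPM with a median of 2.47 in CI_RFP, against 55.7, 419.3 and 372.7 CPM in CI_BFP. CSF3R, the receptor for granulocyte colony-stimulating factor, was at 0 in 9 CI_RFP libraries with a highest value of 1.43 CPM, against 14.7, 0 and 21.1 CPM in CI_BFP. blnk, an adaptor of B cells and macrophages, reached 10.5 CPM in CI_RFP, against 6.39, 74.1 and 40.7 CPM in CI_BFP. Of 5 thrombocyte genes, 3 had a positive and 2 a negative fold, and 1 did not overlap (20.0%, beside 1.14% of all genes). It was f13a1b, a coagulation factor XIII subunit also known from macrophages, with 0 to 273.0 CPM in CI_RFP, against 503.4, 901.9 and 593.6 CPM in CI_BFP. All 7 erythrocyte genes tested had a positive fold, but the list mean was uneven, with CI_RFP 9 at a list mean of 4.09 and the other 11 CI_RFP libraries at 0.456 or less.

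Markers of stromal cells varied widely within CI_RFP. Fibroblast and matrix genes had a positive fold in 19 of 23 and a negative fold in 4, with a median of 0.876 and none without overlap. Their mean log2 CPM ran from -2.15 to 9.66 with a median of 6.53 in CI_RFP, against 7.27, 5.10 and 5.47 in CI_BFP, so that 5 CI_RFP libraries lay below and 4 above all of CI_BFP. COL1A2, a chain of type I collagen, was at 1.36, 0, 6.41, 0 and 0.198 CPM in CI_RFP 1, 2, 5, 8 and 12. It lay between 1213 and 12000 CPM in the other 7 CI_RFP libraries and was 4072, 698.8 and 236.6 CPM in CI_BFP. Of the 5 libraries nearly without collagen, 4 were those rich in vmhc, and the remaining 1 was CI_RFP 5, with the fewest genes. The median of the list was -2.44 in limma voom and -5.28 with the ratio of vmhc to myh6 as a covariate, against 0.876 in the edgeR fit without it, so no direction can be given. TCF21, an epicardial and fibroblast factor, had a median of 2.28 CPM and a highest value of 113.6 CPM in CI_RFP, against 46.4, 2.23 and 19.4 CPM in CI_BFP (log2 fold -0.12 ± 2.26 SE, adjusted p = 0.999).

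Endothelial and endocardial genes had a negative fold in 20 of 26 and a positive fold in 6, with a median of -1.27 and none without overlap. cdh5, the cadherin of endothelial junctions, ran from 0 to 46.7 CPM with a median of 3.45 in CI_RFP, against 103.8, 8.05 and 36.0 CPM in CI_BFP (log2 fold -2.33 ± 1.52 SE, adjusted p = 0.751). ESAM, an adhesion molecule of endothelial junctions, had a median of 0.374 CPM in CI_RFP, against 102.4, 19.6 and 37.3 CPM in CI_BFP, and robo4, an endothelial guidance receptor, 0.876 CPM, against 20.6, 95.2 and 3.43 CPM. The highest endothelial list mean was 4.72 among CI_RFP libraries, in CI_RFP 11, and 5.23 among CI_BFP libraries, in CI_BFP 1. FLI1, an ETS factor of endothelium and blood, had a median of 24.3 CPM in CI_RFP, against 245.3, 44.2 and 93.0 CPM in CI_BFP. Of 7 epicardial genes, 2 had a positive and 5 a negative fold, with a median of -0.117, which was -1.19 in limma voom, -5.9 with the ratio of vmhc to myh6 as a covariate, 0.0757 in libraries with at least 6000 genes, and -0.668 to 1.15 when each library was left out, so no direction can be given. The signs of 2 of them depended on CI_BFP 1, without which ALDH1A2, an enzyme of retinoic acid synthesis, had a log2 fold of 2.22 in place of -0.69, and TCF21 0.885 in place of -0.12.

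Smooth muscle and pericyte genes had a positive fold in 12 of 13 and a negative fold in 1, with a median of 3.82, or 2.14 in limma voom. The list mean was 2.22 to 5.81 in CI_RFP 3, 4, 6, 7, 9, 10 and 11, which also had the CI_RFP fibroblast means of 6.5 to 9.66. It was -1.38 to 1.14 in CI_RFP 1, 2, 5, 8 and 12, where fibroblast means were -2.15 to 0.584, and 1.74, -0.179 and 0.186 in CI_BFP, and the part of fibroblast RNA in this result was not tested. acta2, the actin of smooth muscle, was found in all 12 CI_RFP libraries, with 1 count in the lowest, and in none of CI_BFP. Its level ran from 0.0728 to 2748 CPM with a median of 70.8, which is a spread of several orders of magnitude within the gate, and its adjusted p was 0.524. CSPG4, the NG2 proteoglycan of pericytes, was seen in 10 of 12 CI_RFP libraries, up to 24.0 CPM, and at 0 in CI_BFP, and LMOD1 (ENSDARG00000077261), a leiomodin of smooth muscle, in 6 of 12, up to 23.8 CPM, and at 0. Neural crest, glia and pigment genes had a positive fold in 13 of 17 and a negative fold in 4, with a median of 4.99, of which SOX10 alone (5.88%, beside 0.693% of all genes) did not overlap. The list mean was 1.08 to 2.7 in the CI_RFP libraries rich in fibroblast genes and -1.73 to -0.346 in CI_RFP 1, 2, 5, 8 and 12, against 0.0892, -0.737 and 0.476 in CI_BFP. By share of counts the list had a median of 0.0159% in CI_RFP and 0.0186% in CI_BFP, so its direction depended on the measure. A sox10-driven Cre defined the RFP gate, so SOX10 is not independent of the sort. ednrab, an endothelin receptor of crest-derived cells, was at 0 to 65.2 CPM with a median of 28.4 in CI_RFP, in 10 of 12 libraries, and at 0 in CI_BFP (adjusted p = 0.441). twist1b, a mesenchymal bHLH factor, was seen in 6 of 12 CI_RFP libraries and in none of CI_BFP. The median log2 fold of the neural crest list was 1.84 in limma voom, 2.58 with the ratio of vmhc to myh6 as a covariate, and 3.32 when the 15 cryoinjury libraries were fitted alone.

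Cell cycle genes were sparse in CI_RFP and uneven in CI_BFP. Their mean log2 CPM ran from -1.67 to 1.58 in CI_RFP, and from -1.03 to 2.78 with a median of 2.48 in CI_BFP. Of 20 tested, 7 had a positive and 13 a negative fold, with a median of -0.978, and none was apart. MCM6 (ENSDARG00000057683), a subunit of the replicative helicase, was seen in 3 of 12 CI_RFP libraries with a highest value of 1.58 CPM, against 42.5, 0 and 72.4 CPM in CI_BFP (log2 fold -6.65 ± 2.06 SE, adjusted p = 0.382). MCM5 and MCM2, of the same helicase, had highest values of 5.31 and 14.5 CPM in CI_RFP, against 24.9 and 12.5 CPM in CI_BFP 1, 0 in CI_BFP 2, and 150.5 and 123.2 CPM in CI_BFP 3. These MCM genes, named for their negative fold, were thus present in CI_BFP 1 and 3 and at 0 in CI_BFP 2. The list mean lay below all of CI_BFP in 3 of 12 CI_RFP libraries. CCNB1, a cyclin on the list, was called higher in CI_RFP by DESeq2. CCNB2, a mitotic cyclin that was not on the list and was picked from the genes without overlap, had a positive fold, with 3.31 to 44.2 CPM and a median of 11.02 in CI_RFP and 0 in CI_BFP (at least 161.4-fold higher, adjusted p = 0.524).

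The uninjured libraries were not among those whose ranges chose the genes without overlap, and allowed a separate look at the same gates. They did enter the count filter and the TMM scaling behind those ranges. Some of them stood apart, with 1226 genes, 85.5% of counts in 50 genes and 22.9% mitochondrial counts in UN_RFP 5, and 5008 and 5314 genes in UN_RFP 1 and 4, so values are also given without UN_RFP 5 and in libraries with at least 6000 genes, which lack these 3, both chosen after seeing the data. Of the 103 genes that were higher in every CI_RFP library, 84 (81.6%) had a positive fold of UN_RFP over UN_BFP, beside 38.8% of all genes tested, with a median log2 fold of 1.53 beside -0.426. Of the 169 genes that were lower in every CI_RFP library, 122 (72.2%) had a negative fold without injury, beside 58.2% of all genes. Without UN_RFP 5 the shares were 87.4% of the 103, beside 43.0% of all genes, and 64.5% of the 169, beside 54.0%. In libraries with at least 6000 genes they were 89.3% of the 103, beside 44.4% of all genes, and 73.2% of the 168 still tested, beside 52.3%. Only 1 of the 103 and 1 of the 169 were also apart without overlap in the uninjured libraries, where 9 genes (0.0606%) were above and 129 (0.869%) below. By construction the 103 genes have counts in every CI_RFP library, as 2110 of the 14853 genes tested had. The 169 genes have counts in every CI_BFP library, as 6115 of those tested had. Neither set is therefore matched in abundance to all genes tested.

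**Figure D4:**
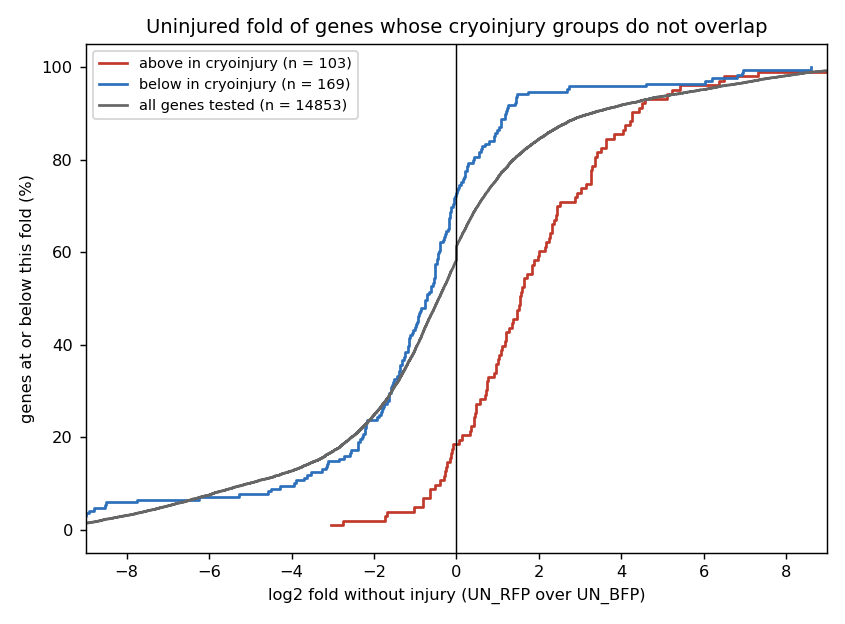
Cumulative share of genes (%) by their log2 fold without injury, UN_RFP over UN_BFP, for the 103 genes higher in every CI_RFP library, the 169 genes lower in every CI_RFP library, and all 14853 genes tested. The curve of the 103 genes lies to the right, with 81.6% of them above 0 beside 38.8% of all genes, and 72.2% of the 169 genes lie below 0 beside 58.2%.

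By list, the median uninjured fold had the sign of the cryoinjury one for the muscle and myeloid lists, but library means overlapped between the uninjured gates. Mean log2 CPM of sarcomere genes ran from 3.2 to 7.26 in UN_RFP and from 1.45 to 4.62 in UN_BFP. For calcium handling genes the ranges were -1.28 to 5.52 and -0.5 to 2.85. They were -2.11 to 6.39 and -0.881 to 6.9 for pan-leukocyte genes, and -1.78 to 5.92 and 0.355 to 7.37 for macrophage genes. Sarcomere genes had a median log2 fold of 3.93 after cryoinjury and 2.35 without injury, and calcium handling and excitation genes 4.70 after cryoinjury and 2.97 without injury. Pan-leukocyte genes had medians of -2.93 after cryoinjury and -1.19 without injury, and macrophage genes -2.57 after cryoinjury and -1.90 without injury. In libraries with at least 6000 genes the medians without injury were 2.15, 3.26, -3.32 and -2.04 for these 4 lists, and without UN_RFP 5 they were 2.27, 3.19, -0.925 and -1.64. Fibroblast and matrix genes, whose sign after cryoinjury depended on the fit, had a negative fold in all 23 without injury, with a median of -2.36, or -1.5 with at least 6000 genes. Smooth muscle and pericyte genes had a median of -1.23 without injury and neural crest genes -1.21, or -0.355 and -0.156 with at least 6000 genes. Border zone genes had a median of 0.86 without injury, and nppa averaged 823.7 ± 971.4 CPM in UN_RFP and 44.4 ± 35.2 CPM in UN_BFP (SD, n = 6 and 4). PFKM (ENSDARG00000060797) averaged 50.8 CPM in UN_RFP and 10.1 CPM in UN_BFP, so that its absence from the BFP gate after cryoinjury was not seen without injury.

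**Figure D5:**
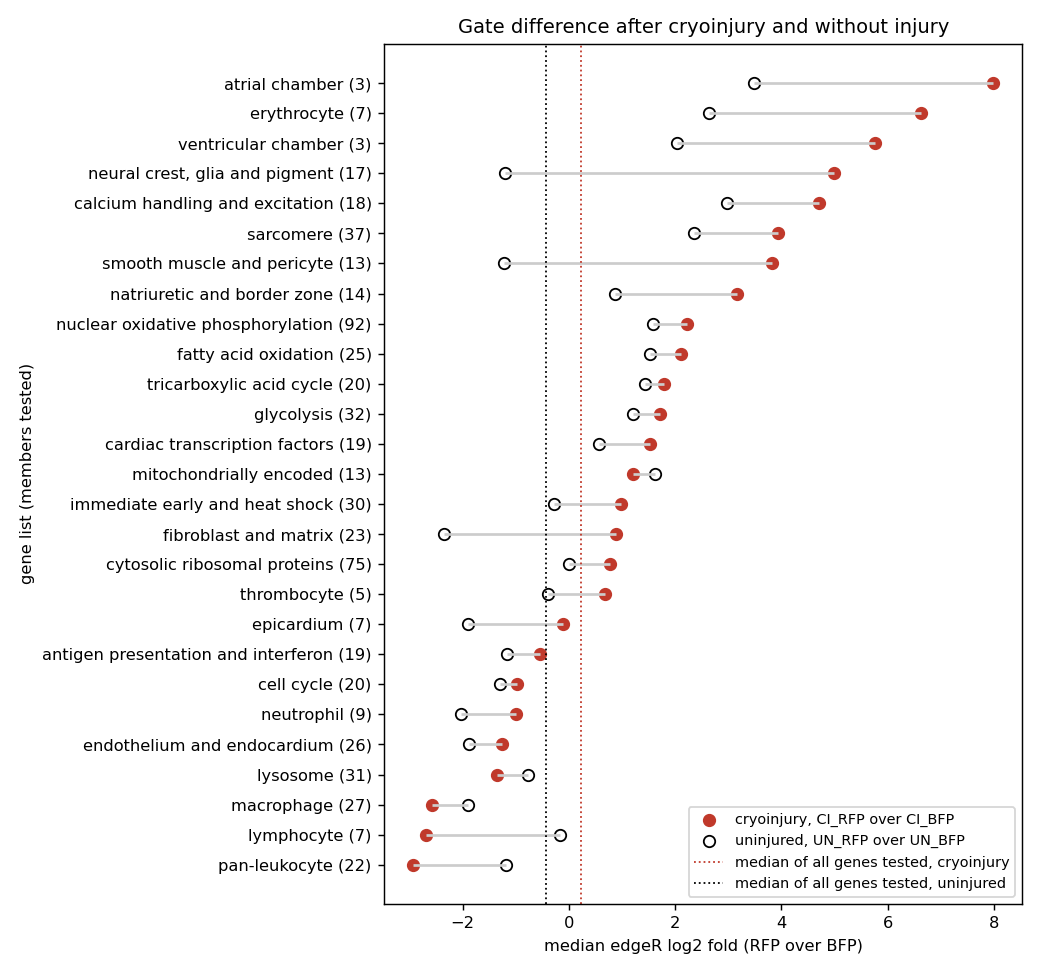
Median edgeR log2 fold of each gene list, RFP gate over BFP gate, after cryoinjury (filled) and without injury (open), with the number of members tested in brackets and dotted lines at the medians of all genes tested (0.22 and -0.426). Sarcomere and calcium lists lie right of both lines and pan-leukocyte and macrophage lists left of both in each condition. Fibroblast, smooth muscle and neural crest points lie on opposite sides of 0 in this fit. So do those of thrombocyte, immediate early and heat shock, and ribosomal protein genes (-0.00723 without injury for the last). The sign of the fibroblast point after cryoinjury is not shared by limma voom (-2.44).

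The difference between conditions was itself tested as an interaction of gate and injury in the same edgeR fit. It called 0 of 14853 genes (0.0%), with a smallest adjusted p of 0.253. At an unadjusted p under 0.05, 1267 genes (8.53%) had a larger and 434 (2.92%) a smaller log2 fold of the RFP gate over the BFP gate after cryoinjury. limma voom called 2 genes with a larger and 0 with a smaller fold, and DESeq2 532 and 163. No gene of any list passed the edgeR interaction, so no dependence of the gate difference on injury was called there.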

How the data were processed

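RNA of sorted adult zebrafish heart cells was amplified with Smart-seq2, per the labels' protocols. The authors deposited raw read counts per Ensembl gene for each library, with no normalization. FastQC 0.11.5, HISAT2 2.1.0, featureCounts 1.6.0 and the GRCz11 build are named in the submitters' processing notes, and the sources used here state neither the annotation release nor the strand setting. Antisense and overlapping genes are therefore uncertain. How reads were divided between gene copies, such as the TTN, MPEG1 and TPI1 genes, was not examined, so their separate levels are uncertain too. No column lacked a sample. Of 31901 gene IDs, 29178 (91.5%) had a symbol in the naming table.

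Counts of all 25 libraries were fitted with edgeR 4.0.16 (R 4.3.3, limma 3.58.1) as 4 group means, with TMM scaling, the default filter by group (14853 genes kept) and robust quasi-likelihood tests. P-values were adjusted by Benjamini-Hochberg over all genes tested, with a threshold of 0.05. The common biological coefficient of variation was 2.127. Genes did not overlap when every CI_RFP library lay above, or below, every CI_BFP library in CPM. Against a group at 0, folds were taken from a floor of 3 counts over the group's combined size and printed with the words at least. The floor was 0.0313 CPM in CI_RFP and 0.107 CPM in CI_BFP. It would bound counting error only if reads were independent molecules, and PCR reads are not. The spread between tubes is not covered by it either. List means used log2 CPM with a prior count of 2. Total counts ran from 5644279 to 11981012 over the 25 libraries.

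The samples were grouped by their labels. The comparison and the gene lists were chosen with earlier results of these data known. Named genes were first the 12 of smallest p in each direction. These were taken among genes with a symbol and counts in 75% or more of the libraries where the mean was higher. Also named were up to 3 of smallest p in each list in the direction of its median. SOX10 and a fixed set of cardiac and cell type genes were always named. Genes described as picked, chosen or singled out with their values seen fall outside these rules. The alternatives were other scalings, no filter, DESeq2 1.42.0, limma voom, the cryoinjury libraries alone, a minimum of 3000 genes detected, a covariate of the ratio of vmhc to myh6 (0.5 CPM added to each), and leaving out each library, and a minimum of 6000 genes detected was added after the data were seen. Of these fits, only the edgeR fit of CI_RFP against CI_BFP was run on simulated counts, and its outcome is not given here.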

Additional observations from a re-analysis of the deposited data

Results flagged for a closer look

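In the uninjured groups, 1 library stood far from the others of its group by Dixon's criterion in each of 2 list means. The mean log2 CPM of epicardial genes was 5.25 in UN_RFP 6, and that of lysosomal genes was 5.74 in UN_BFP 4. Chance alone marks about 1 in 20 groups in this way. How many groups and list means were looked at is not given here, so the 2 marks cannot be called more than chance. Both libraries enter the count filter, the TMM scaling, the shared spread, the uninjured folds and the interaction. Between the cryoinjury gates, edgeR called 9 genes without UN_BFP 4 and 1 without UN_RFP 6. The cryoinjury groups, of 12 and 3 libraries, are outside the sizes for which the criterion is used.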

How the results depend on the processing

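With edgeR as described above, 0 genes were called in either direction. Genes higher in CI_RFP numbered 11 with the 15 cryoinjury libraries alone, 430 with DESeq2, 131 with limma voom, 36 with no count filter and 27 with the ratio of vmhc to myh6 as a covariate. Genes lower in CI_RFP numbered 7 with DESeq2, 1 with median-ratio size factors, 1 with TMM with singleton pairing, 82 with voom, 257 with no filter, of which 27 were among the 14853 genes, and 114 with the covariate. Leaving out each of 25 libraries gave 0 to 6 higher and 0 to 4 lower, with 9 calls in all without UN_BFP 4, 8 without UN_BFP 3, 7 without UN_RFP 2, 5 without CI_BFP 1, 4 without CI_RFP 11 and at most 2 without any other library. The interaction gave 532 and 163 calls with DESeq2, 2 with a larger fold with voom and 2 with no filter, and 0 to 1 larger and 0 smaller when libraries were left out. Genes without overlap numbered 103 to 260 above and 171 to 577 below when a cryoinjury library was left out, 260 and 577 of them without CI_BFP 1. Without CI_BFP 2 there were 452 below, without CI_BFP 3 169 above and 406 below, without CI_RFP 11 165 above and without CI_RFP 9 293 below. In libraries with at least 6000 genes there were 200 above and 178 below. Counting genes with at least 10 counts turned the mean difference in genes detected to -281.2. Left-out libraries moved that difference from -1053 to 1860 and the difference in total counts from -417200 to 1291000, with no test passed. The covariate gave COL1A2 a log2 fold of -7.41, and voom gave it -3.15 and MYH7 -2.34. TCF21 was 0.134 with at least 6000 genes and -0.861 to 0.885 with libraries left out, and ALDH1A2 was -1.28 to 2.22. At unchanged CPM, leaving out a library can only keep or raise the counts without overlap. The cause of the other changes was not tested. No paired analysis was possible because replicate numbers were given in accession order and pair no tubes.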
